A study of Mus musculus with 8 samples.

Results

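The 7 genes that handle RNA in the cytosol and are described here are Ifih1, Dhx58, Mavs, Zbp1, Eif2ak2, Adar and Trim25. They were taken by symbol, from the Ensembl identifier of each row, and all 7 of 7 were found among the 55450 genes in the table of replicates 1 to 3 and among the 24848 in the table of replicate 4. The libraries were made from bone marrow cells of SS dry eye mice that had been differentiated into dendritic cells. One group of 4 libraries received recombinant S100A8/A9, a secreted alarmin of inflamed myeloid cells that binds calcium, and the other group of 4 received phosphate-buffered saline, called vehicle here. Both groups came from the same disease model, and no healthy donor mice are among them. The strain, age, dose and duration are not given in the sources used here, nor whether replicates are separate animals, so p-values measure the spread between these libraries, which may be technical.

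Cells detect viral and misplaced cellular RNA with helicases of the RIG-I-like receptor family, which signal through an adaptor on the mitochondrial surface to switch on type I interferon genes. Interferon in turn raises the transcription of most of these sensors in mouse and human cells, including dendritic cells and macrophages. A second layer acts without that adaptor, by stopping translation, by triggering cell death, or by editing double-stranded RNA so that it is no longer recognized as foreign. The comparison of S100A8/A9 with vehicle was made by the study to find the signaling pathways that this protein engages in dendritic cells.

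Levels are given as FPKM, which scales the fragments of a gene to its length and to the depth of the library. Replicates 1 to 3 of both groups share a table, and replicate 4 of both groups comes from a table made separately by the authors, so tests used replicates 1 to 3 and replicate 4 is set beside them. Libraries correlated at 0.982 to 0.994 within a table and at 0.929 to 0.936 across tables (Pearson r of log2(FPKM + 1) over the genes in both). The replicate 4 values are whole multiples of 1 read and correspond to about 33406300 reads with S100A8/A9 and 31889700 reads with vehicle, while the depth of replicates 1 to 3 could not be recovered from the values. In replicates 1 to 3, a library had 11180 to 11487 genes that reached 1 FPKM. The dendritic cell label was set against marker genes in the 6 libraries of replicates 1 to 3, where 7 of 12 dendritic cell markers and 9 of 9 macrophage markers passed the filter on low values. Of the dendritic cell markers, Cd74 was at 2530 FPKM or more, and H2-Ab1, Ccr7, Itgax, Batf3, Clec10a and Zbtb46 were also expressed, with Zbtb46 at 2.13 to 3.62 FPKM and Batf3 at 6.97 to 12.3 FPKM. Cd209a was at 0, Xcr1 and Clec9a stayed at or below 0.289 FPKM, and Flt3 and Dpp4 at or below 0.979 FPKM. The macrophage markers lay between 5.61 FPKM (Fcgr1) and 474 FPKM (Cd68), with Csf1r at 109 to 213 FPKM. In the sample titles the cells are named BMDMs, which commonly stands for macrophages.

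S100A8/A9 values exceeded vehicle values in each of pairs 1 to 3 for 6 of the 7 genes, and the same 6 were higher in the replicate 4 pair. Over all genes, 19.4% were higher in each of pairs 1 to 3 and 11.7% in each of pairs 1 to 4. The exception was Mavs. In 5 of the 7 genes the 3 S100A8/A9 libraries all lay above the 3 vehicle libraries, against 4.71% of all genes, and 5 were at least 1.5-fold higher by the geometric mean of the pairs, against 2.24%. The median log2 difference over the 7 genes was 0.76, against 0.025 over all 11387 genes tested.

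In limma with the libraries treated as unpaired, the main fit, 0 of the 7 passed an adjusted p of 0.05, as did 0% of all genes. The smallest adjusted p of any gene there was 0.736. At an unadjusted p under 0.05 that fit had 6 of the 7, all higher, against 2.38% of all genes. Libraries of the same replicate number deviated together, so limma was also run with the number as a block, called the blocked fit below. There 2 of the 7, Eif2ak2 and Adar, rose past the adjusted threshold, against 0.501% of all genes, 0 fell, against 0.0176%, and 5 did not pass. The SEs and adjusted p-values of single genes below are from the blocked fit unless the unpaired fit is named. The 7 genes had been picked with earlier results of these data known, and no test was run over them as a list.

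**Figure D1:**
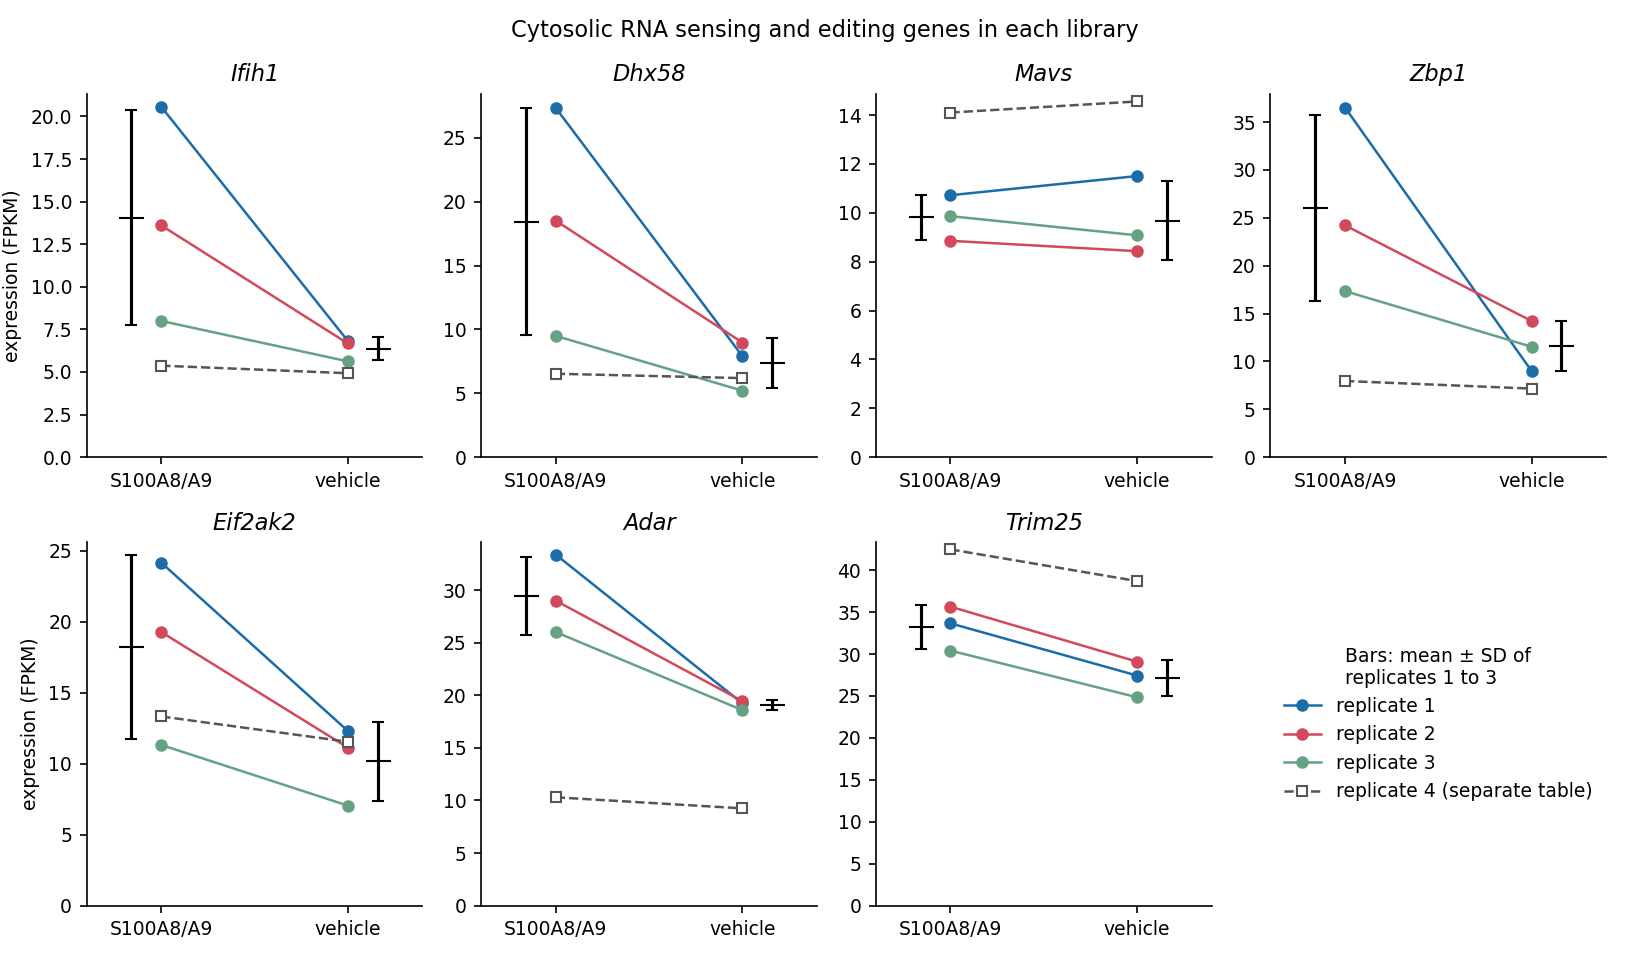
Expression (FPKM, linear axes starting at 0) of the 7 genes in every library, with S100A8/A9 left and vehicle right. Lines join libraries of the same replicate number, black bars give the mean ± SD of replicates 1 to 3, and open squares are replicate 4 from the separate table. For 6 genes the lines slope down toward vehicle in all 4 pairs and Mavs does not.

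Promoter windows from RefSeq (GRCm38.p6, the build of mm10), from 250 bases before to 50 after a transcription start, were at hand for 5 of the 7 genes, in 7 windows, of which 3 belong to Adar. Dhx58 and Zbp1 have no entry. The windows were searched on both strands for the core of the interferon-stimulated response element, bound by ISGF3 and IRF proteins and spelled GAAA, any 2 bases, GAAA, and for the gamma-activated site bound by STAT dimers, written TTCNNNGAA. The response element letters occur in 3.44% of all 32851 windows and the gamma-activated site letters in 8.3%. Counted by gene, 3.99% of 27025 genes hold the response element letters in at least 1 window, and 9.55% the gamma-activated site letters. The Trim25 window and the other Adar windows hold no match and are not shown, although both genes were higher in each of the 4 pairs. A match therefore did not separate the genes that were higher from Mavs. The 4 windows below are all those with a match, from Ifih1, Eif2ak2 and Adar, and that of Mavs, without one. They read 5′ to 3′ on the strand of the gene, and the capitals mark every match.
Ifih1, chr2:62646206-62646505, reverse strand: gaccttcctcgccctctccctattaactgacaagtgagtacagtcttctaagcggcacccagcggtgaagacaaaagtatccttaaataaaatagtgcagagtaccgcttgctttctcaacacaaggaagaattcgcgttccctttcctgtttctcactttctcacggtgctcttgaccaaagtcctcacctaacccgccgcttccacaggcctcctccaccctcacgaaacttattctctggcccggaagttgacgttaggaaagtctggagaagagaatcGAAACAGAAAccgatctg
Eif2ak2, chr17:78882523-78882822, reverse strand: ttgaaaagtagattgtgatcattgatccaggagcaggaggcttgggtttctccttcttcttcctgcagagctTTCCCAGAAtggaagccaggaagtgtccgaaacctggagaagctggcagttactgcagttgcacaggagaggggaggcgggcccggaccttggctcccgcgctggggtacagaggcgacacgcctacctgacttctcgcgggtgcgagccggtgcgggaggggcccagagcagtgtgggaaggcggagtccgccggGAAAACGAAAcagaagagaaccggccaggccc
Adar, chr3:89730468-89730767, forward strand: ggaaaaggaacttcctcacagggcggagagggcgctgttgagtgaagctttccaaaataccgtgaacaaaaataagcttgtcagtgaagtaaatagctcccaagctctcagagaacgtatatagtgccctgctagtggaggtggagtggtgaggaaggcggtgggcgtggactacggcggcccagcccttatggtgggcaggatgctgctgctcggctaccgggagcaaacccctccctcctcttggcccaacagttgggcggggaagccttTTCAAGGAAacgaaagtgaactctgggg
Mavs, chr2:131233813-131234112, forward strand: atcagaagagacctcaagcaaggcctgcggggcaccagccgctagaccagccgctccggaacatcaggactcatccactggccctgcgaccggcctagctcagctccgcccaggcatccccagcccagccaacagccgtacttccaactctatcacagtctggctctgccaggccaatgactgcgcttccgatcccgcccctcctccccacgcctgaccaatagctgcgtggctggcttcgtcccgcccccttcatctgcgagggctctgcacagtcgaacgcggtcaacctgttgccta
Ifih1 has 1 response element match, from 32 to 41 bases downstream of its start, and Eif2ak2 has 1 from 18 to 27 bases downstream. Eif2ak2 also has a gamma-activated site match from 178 to 170 bases upstream. The third Adar window has 1 gamma-activated site match, and the other Adar windows and those of Mavs and Trim25 have no match to either set of letters. Only exact matches were counted, so a window without a match to an element may still hold a variant of it. This includes the third Adar window for the response element. A match describes letters in the window and is not evidence of binding, and the 2 motifs did not overlap in these windows.

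Ifih1 encodes MDA5, the helicase that binds long double-stranded RNA. The gene (ENSMUSG00000026896) lies on the reverse strand of chromosome 2 from 62595798 to 62646255 in mm10. Its expression was 20.6, 13.6 and 8.0 FPKM in S100A8/A9 replicates 1 to 3, against 6.82, 6.67 and 5.62 FPKM in vehicle replicates 1 to 3. The vehicle libraries were close together, the S100A8/A9 libraries were spread widely, and the groups did not overlap. In replicate 4 the values were 5.37 FPKM with S100A8/A9 and 4.93 FPKM with vehicle. The geometric mean of the ratios in pairs 1 to 3 was 2.06, and the log2 difference was 0.94 ± 0.18 (SE, limma, blocked fit). The adjusted p was 0.123 in the blocked fit and 1 in the unpaired one. A two-sided exact permutation test over the 3 libraries per group gave p = 0.1, the smallest it allows at this size, and the same value was reached by Dhx58, Zbp1, Adar and Trim25.

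Dhx58 encodes LGP2, a RIG-I-like helicase without the signaling domain that assists MDA5. It lies on the reverse strand of chromosome 11 from 100694884 to 100704271 (ENSMUSG00000017830), and had the largest log2 difference of the 7, rank 22 of the 11387 genes by rise. Its expression was 27.3, 18.5 and 9.49 FPKM with S100A8/A9 in replicates 1 to 3, against 7.91, 8.98 and 5.21 FPKM with vehicle. Every S100A8/A9 library was above every vehicle library, by only a small margin for replicate 3. Replicate 4 stood at 6.53 FPKM with S100A8/A9 and 6.19 FPKM with vehicle. The ratios averaged 2.35-fold. In the unpaired fit the log2 difference was 1.13 ± 0.35 (SE, limma) and did not pass. In the blocked fit it was 1.13 ± 0.17 (SE; adjusted p = 0.057, limma). Without replicate 1 that p was 0.043 and without replicate 2 it was 0.0179, and the gene did not pass in the other 21 alternatives. An antisense transcript, Dhx58os, overlaps Dhx58 on the other strand, but never exceeded 0.34 FPKM.

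Mavs encodes the mitochondrial adaptor on which the RIG-I-like receptors converge (ENSMUSG00000037523, forward strand of chromosome 2, 131234063 to 131248025). Its expression was 10.7, 8.86 and 9.86 FPKM with S100A8/A9, against 11.5, 8.43 and 9.08 FPKM with vehicle, in replicates 1 to 3. The groups interleaved, with the S100A8/A9 value lower in pair 1 and higher in pairs 2 and 3. In replicate 4 it was again slightly lower with S100A8/A9, at 14.1 FPKM against 14.6 FPKM with vehicle. The log2 difference was 0.03 ± 0.08 (SE; adjusted p = 0.976, limma, blocked fit), and its sign turned negative with quantile normalization (-0.02), without S100A8/A9 replicate 1 (-0.03), without vehicle replicate 2 (-0.06) and without vehicle replicate 3 (-0.01).

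Trim25 encodes a ubiquitin ligase that binds RNA and acts on RIG-I and the antiviral protein ZAP. On the forward strand of chromosome 11 it spans 88999376 to 89020293 (ENSMUSG00000000275). Its expression was 33.7, 35.6 and 30.4 FPKM with S100A8/A9 in replicates 1 to 3, against 27.4, 29.1 and 24.8 FPKM with vehicle. The groups did not overlap, and the within-pair ratios of 1.227, 1.225 and 1.224 were nearly the same in the 3 pairs. Replicate 4 gave 42.5 FPKM with S100A8/A9 and 38.7 FPKM with vehicle, a ratio of 1.10. The log2 difference of 0.28 ± 0.06 (SE) did not pass (adjusted p = 0.159, limma, blocked fit). In the unpaired fit the SE was 0.11, and the gene did not pass there either.

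Zbp1 encodes a sensor of left-handed Z-form RNA that can start necroptosis, a lytic form of cell death. It lies on the reverse strand of chromosome 2 from 173206612 to 173218923 (ENSMUSG00000027514). Its expression was 36.5, 24.2 and 17.3 FPKM with S100A8/A9 in replicates 1 to 3, against 9.0, 14.2 and 11.5 FPKM with vehicle. The S100A8/A9 library of replicate 1 was the highest of its group while the vehicle library of replicate 1 was the lowest of its own. The ratio was accordingly 4.06 in pair 1, against 1.70 in pair 2 and 1.5 in pair 3. Replicate 4 held 7.96 FPKM with S100A8/A9 and 7.16 FPKM with vehicle. The log2 difference was 1.06 ± 0.25 (SE). Its adjusted p in limma was 0.231 in the blocked fit and 0.882 in the unpaired one. Without replicate 1 the log2 difference dropped to 0.64.

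Eif2ak2 encodes PKR, a kinase that halts translation when it binds double-stranded RNA (ENSMUSG00000024079, reverse strand of chromosome 17, 78852564 to 78882573). Its expression was 24.2, 19.3 and 11.3 FPKM with S100A8/A9, against 12.3, 11.1 and 7.06 FPKM with vehicle, in replicates 1 to 3. The groups overlapped, because replicate 3 was low in both: its S100A8/A9 value lay below the vehicle value of replicate 1. Within pairs the ratios were 1.96, 1.73 and 1.61. Replicate 4 was at 13.3 FPKM with S100A8/A9 and 11.6 FPKM with vehicle, a ratio of 1.15. Eif2ak2 rose in the blocked fit, by 0.76 ± 0.08 (SE) on the log2(FPKM + 1) scale (limma, adjusted p = 0.0298), and did not pass in the unpaired one (adjusted p = 1). The window shown above carries a match to each motif for this gene.

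Adar encodes ADAR1, which converts adenosine to inosine in double-stranded RNA and so keeps cellular RNA from setting off MDA5, PKR and ZBP1 (ENSMUSG00000027951, forward strand of chromosome 3, 89715022 to 89753446). Its expression was 33.4, 29.0 and 26.0 FPKM with S100A8/A9 in replicates 1 to 3, against 19.2, 19.4 and 18.6 FPKM with vehicle. The vehicle libraries differed little, with a coefficient of variation of 2.34%, and every S100A8/A9 library stood well above them. In replicate 4 the level was near 10 FPKM in both groups, at 10.3 FPKM with S100A8/A9 and 9.25 FPKM with vehicle. The Adar window shown above holds a gamma-activated site match. Adar rose in the blocked fit, by 0.59 ± 0.08 on the same scale (SE; limma, adjusted p = 0.0443). In the unpaired fit its adjusted p of 0.736 was the lowest of the 7. The values are per gene, so the interferon-inducible long isoform of ADAR1 and the constitutive short one cannot be told apart.

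Whether the 2 genes passed depended on which libraries were used and how they were scaled. In limma's blocked fit the adjusted p of Eif2ak2 was 0.0676 without replicate 1, 0.0188 without replicate 2 and 0.0729 without replicate 3. For Adar it was 0.115, 0.0417 and 0.0865 in the same order. With median-of-ratios factors it was 0.0801 for Eif2ak2 and 0.108 for Adar, and with all 8 libraries 0.258 for each, blocked in both cases. The log2 differences stayed positive throughout. With median-of-ratios factors they were 0.74 for Eif2ak2 and 0.57 for Adar, and leaving out 1 pair gave 0.68 to 0.83 for Eif2ak2 and 0.51 to 0.66 for Adar.

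Pair 1 had the largest ratio for 6 of the 7 genes, all but Mavs, and pair 4 had the smallest for the same 6. How often this order occurs among all genes was not counted, so it is not shown to be particular to these 6. In pair 1 Zbp1, Dhx58 and Ifih1 were 4.06, 3.46 and 3.01 times as high with S100A8/A9 as with vehicle, and in pair 4 they were 1.11, 1.06 and 1.09 times as high. The replicate 4 values can be turned into reads, which gives the counting error of that pair. Adar had 2794 reads with S100A8/A9 and 2395 reads with vehicle, a ratio of 1.11 with a 95% interval of 1.05 to 1.18 (exact binomial, counting error only). For Eif2ak2 these were 2278 and 1884 reads, and the ratio of 1.15 had an interval of 1.09 to 1.23. The interval lay above 1 for 5 of the 7 genes, and included 1 for Dhx58 (0.947 to 1.18) and Mavs (0.903 to 1.04). The share of all genes with an interval above 1 was not counted, so the 5 cannot be set against a background. These intervals compare the 2 libraries of replicate 4, not the treatments.

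**Figure D2:**
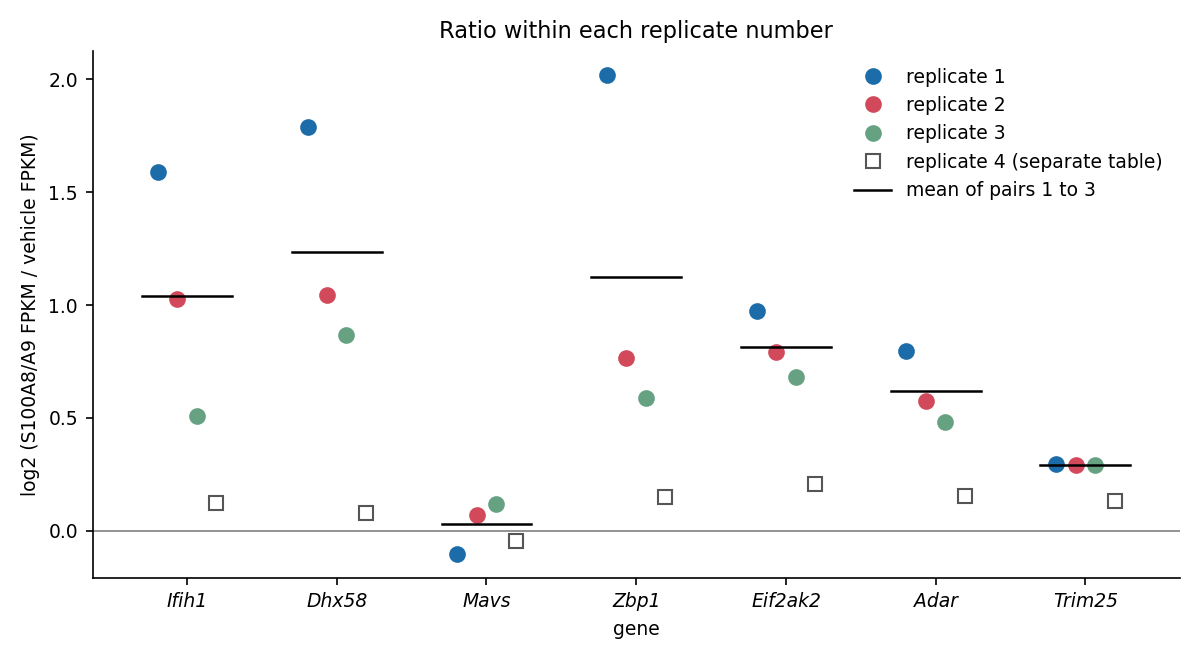
Log2 ratio of FPKM with S100A8/A9 over FPKM with vehicle, for each of the 7 genes and each replicate number, with black lines at the mean of pairs 1 to 3. The points of Trim25 from pairs 1 to 3 coincide near 0.29, those of Zbp1 run from 0.59 to 2.02, and the pair 4 squares lie between -0.05 and 0.21.

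Markers of other cell types also differed between replicate numbers. Summed FPKM of the 9 macrophage markers was 988.5, 641.1 and 530.4 with S100A8/A9 in replicates 1 to 3, against 935.6, 641.4 and 488.9 with vehicle. For the 11 neutrophil markers, led in replicates 2 and 3 by S100a8, the sums were 25.3, 69.7 and 144.4 with S100A8/A9 and 24.9, 62.0 and 155.8 with vehicle. Outside S100a8, S100a9 and Csf3r, no marker of that list exceeded 1.02 FPKM. Csf3r ran against the sum and was highest in replicate 1, at 10.1 FPKM with S100A8/A9 and 11.6 FPKM with vehicle. The 6 monocyte markers summed to 130.2, 221.2 and 141.9 FPKM with S100A8/A9 and to 82.2, 180.6 and 210.9 FPKM with vehicle. Thus the macrophage sum was highest in replicate 1, the neutrophil sum in replicate 3, and the monocyte sum moved in no common direction with S100A8/A9. The 12 dendritic cell markers, led by Cd74, also had their highest sum in replicate 1. That sum was 4733, 3408 and 3407 FPKM with S100A8/A9 in replicates 1 to 3, against 4704, 3361 and 3143 FPKM with vehicle. Of the 6 plasmacytoid dendritic cell markers, Siglech was at 0 in all 6 libraries, and the sum lay between 90.2 and 120.8 with S100A8/A9 and between 82.1 and 91.2 with vehicle. Bst2, itself inducible by interferon, accounted for 50.5 to 71.5 FPKM with S100A8/A9 and 34.4 to 44.3 FPKM with vehicle. In the blocked fit 0 of the 9 macrophage, 7 dendritic cell, 3 monocyte, 3 neutrophil, 4 plasmacytoid dendritic cell and 5 T and NK cell markers that passed the filter were called, where 0.501% of all genes were called higher and 0.0176% lower. The B cell and the mast cell and basophil lists had 0 genes past the filter. The part of cell makeup in the size of the response was not tested, and in bulk samples fewer cells of a type and less RNA per cell cannot be told apart.

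The order of the mean levels over replicates 1 to 3 changed between groups. With S100A8/A9 the mean over replicates 1 to 3 was 33.2 ± 2.64 FPKM for Trim25, 29.5 ± 3.70 for Adar, 26.0 ± 9.71 for Zbp1, 18.4 ± 8.92 for Dhx58, 18.3 ± 6.49 for Eif2ak2, 14.1 ± 6.30 for Ifih1 and 9.81 ± 0.934 for Mavs (SD, n = 3). With vehicle it was 27.1 ± 2.14 FPKM for Trim25, 19.1 ± 0.447 for Adar, 11.6 ± 2.61 for Zbp1, 10.2 ± 2.76 for Eif2ak2, 9.67 ± 1.62 for Mavs, 7.36 ± 1.94 for Dhx58 and 6.37 ± 0.654 for Ifih1 (SD, n = 3). By these means Mavs came last with S100A8/A9, while with vehicle it stood above both helicase genes. Single libraries differed. In S100A8/A9 replicate 3 Mavs, at 9.86 FPKM, was above Dhx58 at 9.49 FPKM and Ifih1 at 8.0 FPKM. In replicate 4 Mavs was above every other gene but Trim25 in both groups, at 14.1 FPKM with S100A8/A9 and 14.6 FPKM with vehicle. With S100A8/A9 every pair of neighbors in the order had overlapping ranges, and with vehicle the ranges were separate only for Trim25 and Adar and for Adar and Zbp1.

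Ratios to Mavs within a library, a measure chosen after the values were seen, do not depend on how libraries are scaled against each other. Ifih1 was at 1.92, 1.54 and 0.811 times the FPKM of Mavs in S100A8/A9 replicates 1 to 3, against 0.593, 0.792 and 0.619 times in vehicle replicates 1 to 3. The groups did not overlap, and the same held for Zbp1 and Adar, each with p = 0.1 in a two-sided exact permutation test, the smallest that 3 against 3 libraries allow. Adar stood at 3.01 ± 0.331 times Mavs with S100A8/A9 and at 2.01 ± 0.319 times with vehicle in replicates 1 to 3 (SD, n = 3 each). In replicate 4 Adar was below Mavs in both groups, at 0.73 times with S100A8/A9 and 0.635 times with vehicle. Ifih1 was there at 0.381 times with S100A8/A9 and 0.338 times with vehicle. The ratios of Dhx58, Eif2ak2 and Trim25 overlapped between groups, with unpaired exact permutation p-values of 0.2, 0.2 and 0.3. Within pairs, the ratio to Mavs was higher with S100A8/A9 in each of the 4 pairs for all 6 genes. Mavs itself was lower with S100A8/A9 in pairs 1 and 4 (ratios of 0.932 and 0.969), which raises this measure for any gene. In pairs 2 and 3 it was higher (1.05 and 1.09), which lowers the measure. The shares of all genes whose ratio to Mavs did not overlap, or was higher in every pair, were not counted.

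**Figure D3:**
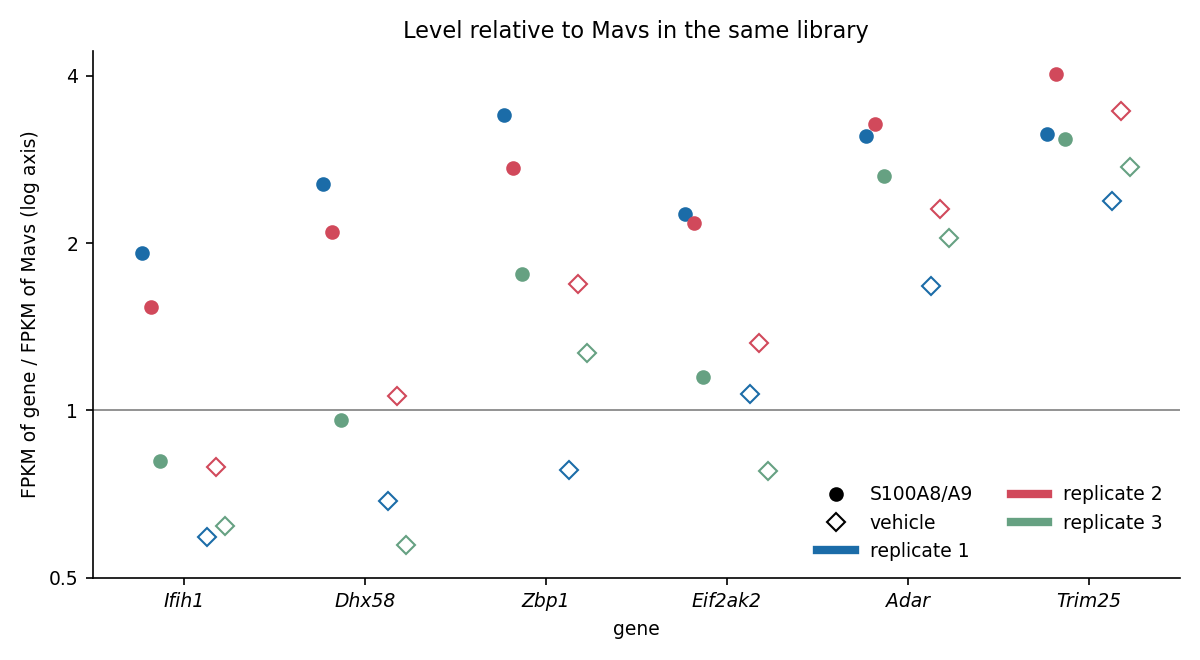
FPKM of 6 genes divided by FPKM of Mavs in the same library, on a log axis, for replicates 1 to 3, with filled circles for S100A8/A9 and open diamonds for vehicle. Ifih1 lies below Mavs in all 3 vehicle libraries and above it in 2 of the 3 S100A8/A9 libraries.

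The wider RNA sensing machinery was described with 7 lists that held 105 other genes, 99 of them past the filter. Of the 99, 0 passed in limma in either fit. Over all genes the blocked fit called 0.501% higher and 0.0176% lower, so few or no calls among 99 genes or in the shorter lists below are near that background. At an unadjusted p under 0.05, 9 were higher in the unpaired fit, against 2.38% of all genes, and 22 in the blocked fit, against 6.13%. Groups did not overlap, in the higher direction, for 9 of the 99, against 4.71% of all genes. The median log2 difference of the 99 was 0.073, against 0.025 for all genes.

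Among RIG-I-like receptors and their ubiquitin ligases, 0 of 12 other genes passed, with a median log2 difference of 0.083. Ddx58, the gene of RIG-I itself, was close to Dhx58 in size, at 1.09 ± 0.39 (log2 difference, SE, limma, unpaired fit), and did not pass there. The Ddx58 groups overlapped, because the S100A8/A9 value of replicate 3 lay below the vehicle value of replicate 1. Its expression was 41.6, 24.4 and 12.8 FPKM with S100A8/A9, against 13.4, 11.1 and 7.85 FPKM with vehicle, in replicates 1 to 3. The ratios averaged 2.23-fold (adjusted p = 0.057, limma, blocked fit, and 0.0223 without replicate 2), and replicate 4 was at 9.24 FPKM with S100A8/A9 and 8.16 FPKM with vehicle. A further 3 genes of the list were picked after their values were seen. Ddx60, a helicase linked to RIG-I signaling, was at 9.45, 5.55 and 3.10 FPKM with S100A8/A9 and 3.52, 2.73 and 2.03 FPKM with vehicle (limma, blocked fit, adjusted p = 0.117). Zc3hav1, which encodes ZAP, averaged 1.28-fold and Rnf135, a ligase that modifies RIG-I, 1.24-fold, both with groups that did not overlap in replicates 1 to 3 (limma, blocked fit, adjusted p = 0.155 and 0.601). In replicate 4 Zc3hav1 was at 28.1 FPKM with S100A8/A9 and 26.3 FPKM with vehicle, while Rnf135 was lower, at 7.05 FPKM with S100A8/A9 and 7.77 FPKM with vehicle.

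In MAVS signaling 0 of 18 other genes passed, with a median of 0.074. Irf7, the transcription factor that drives interferon alpha genes and is itself interferon-inducible, stood apart in size at 51.8, 32.4 and 20.9 FPKM with S100A8/A9, against 17.1, 18.1 and 12.5 FPKM with vehicle, in replicates 1 to 3. Its log2 difference was 1.02 ± 0.30 (SE, limma) in the unpaired fit and did not pass. In the blocked fit it was 1.02 ± 0.16 (SE; adjusted p = 0.0684, limma). That p was 0.0424 without replicate 1 and 0.0179 without replicate 2. In replicate 4 it was 8.88 FPKM with S100A8/A9 and 5.72 FPKM with vehicle. Irf3, the constitutive partner, and the kinase gene Tbk1 were chosen after their values were seen. Irf3 averaged 17.0 FPKM with S100A8/A9 and 19.5 FPKM with vehicle, and Tbk1 30.4 and 27.5 FPKM in the same order.

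Genes that restrain this pathway gave 0 of 20 passing and a median of 0.106. Nlrc5, better known as the MHC class I transactivator, had the smallest p of the list in the blocked fit. It was at 19.6, 20.6 and 17.8 FPKM with S100A8/A9, against 10.96, 15.2 and 13.1 FPKM with vehicle, in replicates 1 to 3. Its adjusted p in limma was 0.0975 in the blocked fit and 0.835 in the unpaired one. In the PKR and eIF2 alpha arm 0 of 14 other genes passed, with a median of 0.072. Atf3, a stress-induced transcription factor, had the smallest p there, at 37.8, 45.1 and 60.1 FPKM with S100A8/A9 and 33.4, 43.0 and 43.8 FPKM with vehicle in replicates 1 to 3. It was higher in each of the 3 pairs, with overlapping groups, and did not pass (adjusted p = 0.539, limma, blocked fit). The other eIF2 alpha kinases Eif2ak1, Eif2ak3 and Eif2ak4, named after their values were seen, had log2 differences of -0.03, -0.02 and -0.03, and 0 of these 3 passed. Adar belongs to the list of RNA editing deaminases and double-stranded RNA-binding proteins, where 0 of 15 other genes passed and the median was 0.057. In that list Ilf2, a double-stranded RNA-binding complex subunit, had the smallest p, at 8.17 ± 0.666 FPKM with S100A8/A9 and 7.11 ± 0.707 FPKM with vehicle in replicates 1 to 3 (SD, n = 3 each). In replicate 4 it was lower, at 4.07 FPKM with S100A8/A9 and 4.24 FPKM with vehicle.

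Of the ZBP1 and necroptosis partners 0 of 7 passed, with a median of 0.061. Ripk1, the kinase that ZBP1 engages through a shared motif, was lower in each of the 3 pairs, at 11.5, 13.7 and 13.7 FPKM with S100A8/A9 and 13.5, 15.7 and 15.7 FPKM with vehicle, and missed the threshold (adjusted p = 0.502, limma, blocked fit). Of the endosomal RNA sensing genes 0 of 13 passed, with a median of 0.094. Myd88, the adaptor of most Toll-like receptors, did not overlap between groups, at 19.4 ± 0.468 FPKM with S100A8/A9 and 15.6 ± 0.46 FPKM with vehicle (SD, n = 3 each; adjusted p = 0.195, limma, blocked fit).

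**Figure D4:**
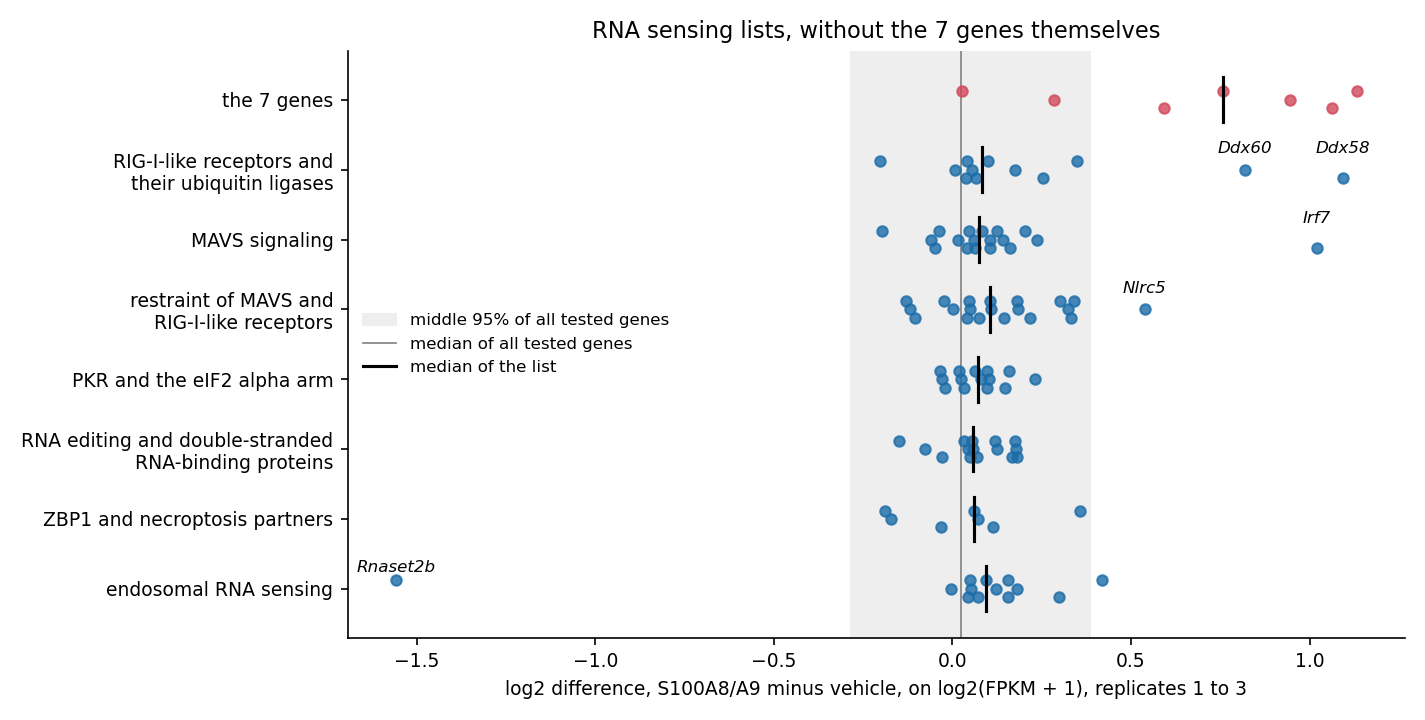
Log2 difference on log2(FPKM + 1), S100A8/A9 minus vehicle, replicates 1 to 3, for the 7 genes (red) and for the other genes of 7 RNA sensing lists (blue), each point a gene. The shaded band holds the middle 95% of all tested genes, from -0.28 to 0.39, and black ticks are list medians. In the lists, genes beyond 0.5 in either direction are named, while points of the 7 genes carry no names.

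The genes most like each of the 7 across the 6 libraries of replicates 1 to 3 were found by Pearson r of log2(FPKM + 1) among 6453 other genes whose mean reached 5 FPKM. The points share 3 replicate numbers and 1 table, so r describes these libraries and carries no test. Dhx58 was most like Ifi47 (0.998) and Gbp7 (0.997), Eif2ak2 most like Slfn5 (0.999) and Oas1a (0.998), and Ifih1 most like Isg15 (0.994) and Themis2 (0.992). For Zbp1 the closest were Pnpt1 (0.988) and Slfn1 (0.982), for Adar Ifi35 (0.994) and Cd300lf (0.993), and for Trim25 Batf2 (0.997) and March5 (0.983). Mavs was closest to Lgals1 (0.993) and Sdf4 (0.984), which did not separate the groups either. Among the 7 genes themselves r was highest for Ifih1 with Dhx58 (0.984), lay between 0.826 and 0.984 for every pair without Mavs, and between -0.036 and 0.291 for every pair with it.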

How the data were processed

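Per the labels' protocols, Illumina libraries were made from oligo(dT)-selected RNA of 8 mouse cultures. Tools named in the submitters' processing notes, without roles, are DESeq2 1.34.0, Subread, featureCounts and HISAT2, with the build mm10. No strand setting is stated there, so reads of overlapping genes on opposite strands cannot be told apart. Of such genes, none exceeded 1.93 FPKM (n-R5s29 beside Eif2ak2), and Chrnb2, which shares exon bases with Adar, stayed at or below 1.55 FPKM. The authors deposited gene-level values taken here to be FPKM, a unit inferred from the values. In replicate 4, low values (up to 20 reads) came out as whole reads, within 0.01 reads, for 98.5% or more. In replicates 1 to 3 at most 6.14% were, so the depth of those libraries is unknown and no count test was run.

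Genes that reached 1 FPKM in 3 or more of the 6 libraries of replicates 1 to 3 were fitted by limma-trend (limma 3.58.1, R 4.3.3) on log2(FPKM + 1), two-sided, with Benjamini-Hochberg adjustment over 11387 genes and a threshold of 0.05. Differences on that scale understate changes of low genes. The 105 other pathway genes exclude the 7 described. The fit without a block is the main one. Deviations from the group means correlated at 0.595, 0.254 and 0.52 between libraries of the same number, and at -0.531 to -0.01 between different numbers, so the numbers, whose meaning the labels do not give, were taken as pairs. Single values were tested by exact permutation over libraries. Fits were tested on simulated data. Symbols, mm10 positions and lengths came from GENCODE M21. The protein comparison that had been planned was not made.

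The 7 genes and the lists were chosen with earlier results of these data known. Named were the 7, each list's called genes or else the 1 gene with the smallest p in the blocked fit, and the 2 genes most like each of the 7. Other named genes are said to be chosen after their values were seen, or are markers. Alternatives changed the block, filter, pseudocount, scaling, libraries and tables used.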

Additional observations from a re-analysis of the deposited data

Results flagged for a closer look

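Of 21 sets of 4 values examined for the 7 genes (FPKM in each group and the within-pair log2 ratios), 2 had an end value set apart from the other 3, where chance gives about 1 in 20. Adar in the 4 vehicle libraries was one, with replicate 4 at 9.251 FPKM against 18.6 to 19.4 FPKM in replicates 1 to 3. The replicate 4 value comes from the separately made table. Trim25 was the other, in its within-pair log2 ratios of S100A8/A9 over vehicle, with 0.1342 in pair 4 against 0.29 to 0.30 in pairs 1 to 3. The gap was 0.916 of the whole range for Adar and 0.98 for Trim25, both above Dixon's critical value for 4 values.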

How the results depend on the processing

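The unpaired fit called 0 genes of all, 0 of the 7 and 0 of the other pathway genes. With the replicate block it called 59 of all (57 higher, 2 lower) and 2 of the 7, and a pseudocount of 0.1 in that fit gave 62 and 2. Quantile normalization with the block called 3 genes of all and 0 of the 7, as did scaling by upper-quartile or by median-of-ratios factors. Without any filter, and with all 8 libraries, 0 were called with or without the block. Leaving out single libraries or pairs gave 0 to 98 calls of all genes, 0 to 3 of the 7 and 0 to 2 of the other pathway genes. With the block, 40 genes of all, 1 of the 7 and 1 pathway gene were called without replicate 1. Without replicate 2 these were 98, 3 and 2, and without replicate 3 they were 7, 0 and 1. Without vehicle replicate 2 alone, 1 gene of all was called. The sign of the Mavs log2 difference turned negative under quantile normalization (-0.01928, with or without the block) and without replicate 3 (-0.01503). Without single libraries it ranged from -0.05778 to 0.1456. The other 6 genes were higher in all 23 alternatives. The cause of these shifts was not tested. Whole reads are known only for replicate 4, so the counting error of replicates 1 to 3 is unknown.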

Other observations

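Rnaset2b, a lysosomal ribonuclease gene of the endosomal list, was at 2.71, 2.73 and 4.22 FPKM with S100A8/A9 in replicates 1 to 3, against 14.8, 19.7 and 4.64 FPKM with vehicle. Its near-identical copy Rnaset2a was at 2.19, 2.47 and 14.6 FPKM with S100A8/A9, against 2.87, 3.58 and 5.69 FPKM with vehicle. Reads shared by the 2 copies may be split in counting, so both genes are uncertain. In replicate 4 both were below 1 FPKM in both groups. The adjusted p of Rnaset2b in limma was 0.324 with the replicate block. These genes were chosen after their values were seen.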
